A study of Homo sapiens with 18 samples.

Results

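The 5 genes that encode the NF-κB transcription factor subunits, NFKB1, NFKB2, REL, RELA and RELB, were followed in 18 RNA-seq libraries of chronic lymphocytic leukemia (CLL) cell lines. They were taken by symbol from a table of read counts for 56609 gene symbols, and all 5 passed the filter that left 31872 genes for testing. The lines were HG3, MEC2 and PCL12, which are EBV-positive B-cell lines. MEC2 carries mutated IGHV genes, and HG3 and PCL12 carry unmutated ones. Each line was sampled in 3 CpG-stimulated and 3 unstimulated libraries. CpG-stimulated cells had received 2.5 µg/mL of the class B oligonucleotide CpG-ODN2006, a ligand of Toll-like receptor 9 (TLR9), for 4 h, and unstimulated cells had received none. Each line comes from 1 patient, so a difference between lines rests on 1 origin each. In such bulk samples fewer cells of a type and less RNA per cell cannot be told apart. No label says whether the replicates were separate cultures, so p-values measure only the spread between these samples, which may be technical.

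NF-κB proteins bind DNA as dimers. In resting cells they are held in the cytoplasm by IκB proteins. In the classical pathway, which TLR9 engages through MYD88, the IκB kinase complex marks IκBα for degradation, and dimers of p50 with RelA or c-Rel enter the nucleus. In the alternative pathway NIK and IKKα drive the release of p52 from its precursor, and p52 pairs with RelB. NFKB1 encodes the precursor of p50 and NFKB2 the precursor of p52. REL, RELA and RELB encode c-Rel, RelA (p65) and RelB, the subunits with a transactivation domain. EBV gene products are known to act on both pathways. The data are of mRNA, and no measure of protein, processing or nuclear entry was among them.

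In GENCODE release 44 on GRCh38 the genes lie at chr4:102501330-102617302 (NFKB1, plus strand), chr10:102394110-102402524 (NFKB2, plus strand), chr2:60881491-60931612 (REL, plus strand), chr11:65653599-65663090 (RELA, minus strand) and chr19:45001461-45038192 (RELB, plus strand). REL overlaps an lncRNA gene and the small nuclear RNA pseudogene RNU4-51P on its own strand, the latter with 49 counts over the 18 libraries. RELA overlaps RELA-DT on the opposite strand, and although the library protocol was strand-specific, whether the counting used strand is not given in the sources used here. Promoter windows from RefSeq (GRCh38.p14), 250 bases before to 50 bases after an annotated start, were at hand for 4 of the 5 genes, namely NFKB1, NFKB2, REL and RELA. The 10-base κB consensus was searched for on both strands. It was matched in 5.91% of 35116 windows, and 7.09% of 27305 genes had a match in at least 1 window. NFKB1, NFKB2 and REL had a match and RELA had none in its 2 windows. The 6 matching stretches are shown because this consensus is the one NF-κB dimers bind, here in promoter windows of the genes that encode them. Each is given with 30 bases, the match in capitals. Distances are to the RefSeq start of the window. The REL and NFKB2 stretches lie within the GENCODE spans given above.
NFKB1, chr4:102501300-102501329, match beginning 49 bases before the start: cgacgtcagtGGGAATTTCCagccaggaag
REL, chr2:60881518-60881547, 47 bases before the start: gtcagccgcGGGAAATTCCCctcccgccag
NFKB2, chr10:102394462-102394491, 107 bases before a start: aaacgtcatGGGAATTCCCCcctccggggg
NFKB2, chr10:102394490-102394519, 78 bases before the same start: gggccgagaaGGGGCTTTCCcggccctgag
NFKB2, chr10:102395519-102395548, 176 bases before a further start: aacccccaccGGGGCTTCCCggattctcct
NFKB2, chr10:102395674-102395703, 21 bases before that start: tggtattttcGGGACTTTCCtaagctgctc
All 6 are on the plus strand as printed. In the REL stretch and in the first NFKB2 stretch the capitals cover 11 bases, because 2 overlapping matches were joined. A match describes the letters only, and binding was not measured.

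The libraries held 20382943 to 67308932 counts, and a subunit gene held 479 to 41577 counts in a library. The B-cell markers MS4A1, CD79A, CD79B and PAX5 were detected in every library, MS4A1 at 597 to 1712 CPM and CD79A at 200.3 to 1001.5 CPM. CPM in this paragraph are counts scaled to the library total. Those of the subunit genes below are scaled to a common effective library size. The 3 T-cell markers summed to at most 2.42 CPM, the 4 myeloid markers to at most 1.74 CPM and the 2 NK-cell markers to at most 3.87 CPM. The 2 plasma-cell markers, PRDM1 and SDC1, summed to 21.4 to 72.3 CPM and the 2 fibroblast markers, COL1A1 and PDGFRB, to 9.90 to 74.8 CPM, and their part in the results was not tested. Of the 3 CLL markers FCER2 (CD23) was at 285 CPM or more in every library, CD5 averaged 44.8 CPM in HG3, 0.0875 CPM in MEC2 and 0.794 CPM in PCL12, and ROR1 averaged 14.8, 0.115 and 0.524 CPM. A library of HG3 (replicate 2, unstimulated) and one of MEC2 (replicate 2, with CpG) had mitochondrial shares of 20.2% and 19.7%, whereas the remaining ones had 2.82% to 9.28%. The 36 transcripts chosen as abundant in MEC2 and scarce in PCL12 replicate 1 were compared with the MEC2 level. In PCL12 replicates 2 and 3, with and without CpG, they were at a median of 28.6% to 31.1% of it. In replicate 1 the median was 1.39% and 1.49%, which the choice kept low. Values without these libraries are given for several of the results, and what part these features have in the results was not tested beyond that.

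NFKB1 was expressed in every library, and CpG libraries were higher in most pairs without the groups separating. In HG3 it was at 353, 115 and 686 CPM in unstimulated replicates 1, 2 and 3 and at 444, 398 and 659.6 CPM in the CpG-stimulated ones. In MEC2 the unstimulated replicates were at 277, 274 and 206 CPM and the CpG-stimulated ones at 485, 341 and 259 CPM. In PCL12 the levels were 267, 409.6 and 239 CPM without CpG and 347, 451 and 272 CPM with it. The groups overlapped in all 3 lines, although each CpG library exceeded its own partner except in HG3 replicate 3. The lowest level of all belonged to the HG3 library with the high mitochondrial share, unstimulated replicate 2, and its pair gave the largest NFKB1 difference, a ratio of 3.44.

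NFKB2 was higher with CpG in every pair of MEC2 and PCL12 and lower in 2 of 3 pairs of HG3. HG3 held 506, 937 and 743 CPM without CpG and 627, 604 and 721 CPM with it. MEC2 held 301, 275 and 207 CPM without CpG and 583, 828 and 288 CPM with it. PCL12 held 363, 530.2 and 213 CPM without CpG and 595, 577 and 351 CPM with it. In MEC2 and PCL12 replicate 3 was low in both conditions, so the groups overlapped. The MEC2 ratios were 1.94, 3.01 and 1.39 in replicates 1, 2 and 3, and the highest came from replicate 2, whose CpG library has the high mitochondrial share.

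REL, the gene of c-Rel, had the widest spread between replicates of the 5, with a standard error (SE) of 0.77 on the Log2FC in each line. HG3 held 72.1, 24.7 and 226 CPM without CpG and 78.9, 78.9 and 237 CPM with it. MEC2 held 117, 104.97 and 62.0 CPM without CpG and 203, 257 and 89.3 CPM with it. PCL12 held 78.4, 171 and 88.3 CPM without CpG and 109.6, 289 and 67.1 CPM with it. Replicate 3 was the highest in HG3 and the lowest in MEC2, and the groups overlapped in each line. PCL12 replicate 3 was the only pair in which the CpG library was the lower one, with a ratio of 0.760.

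RELA, the gene of p65, had the narrowest spread of the 5, with an SE of 0.27 on the Log2FC in each line. HG3 held 137, 84.6 and 186 CPM without CpG and 137, 142 and 177 CPM with it. MEC2 held 130.1, 143 and 92.7 CPM without CpG and 149, 143 and 103 CPM with it. PCL12 held 129, 108 and 90.7 CPM without CpG and 118, 114 and 86.1 CPM with it. The groups overlapped in every line. Only HG3 replicate 2 stood apart, with a ratio of 1.68, whereas the other 8 pairs had ratios of 0.913 to 1.14.

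RELB was higher with CpG in each of the 9 pairs. HG3 held 99.4, 111 and 173 CPM without CpG and 127, 128 and 181 CPM with it. MEC2 held 111, 113 and 48.1 CPM without CpG and 245, 193 and 73.0 CPM with it. PCL12 held 98.4, 123 and 48.5 CPM without CpG and 149, 150.3 and 86.4 CPM with it. Replicate 3 was low in MEC2 and PCL12 in both conditions, and its stimulated library was below the unstimulated libraries of replicates 1 and 2, so the groups overlapped here too. In none of the lines, then, did all 3 CpG libraries of a subunit gene lie above the 3 unstimulated ones, as they did for 2.14% of tested genes in HG3, 2.52% in MEC2 and 2.53% in PCL12. The ratios ran from 1.05 in HG3 replicate 3 to 2.20 in MEC2 replicate 1.

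**Figure D1:**
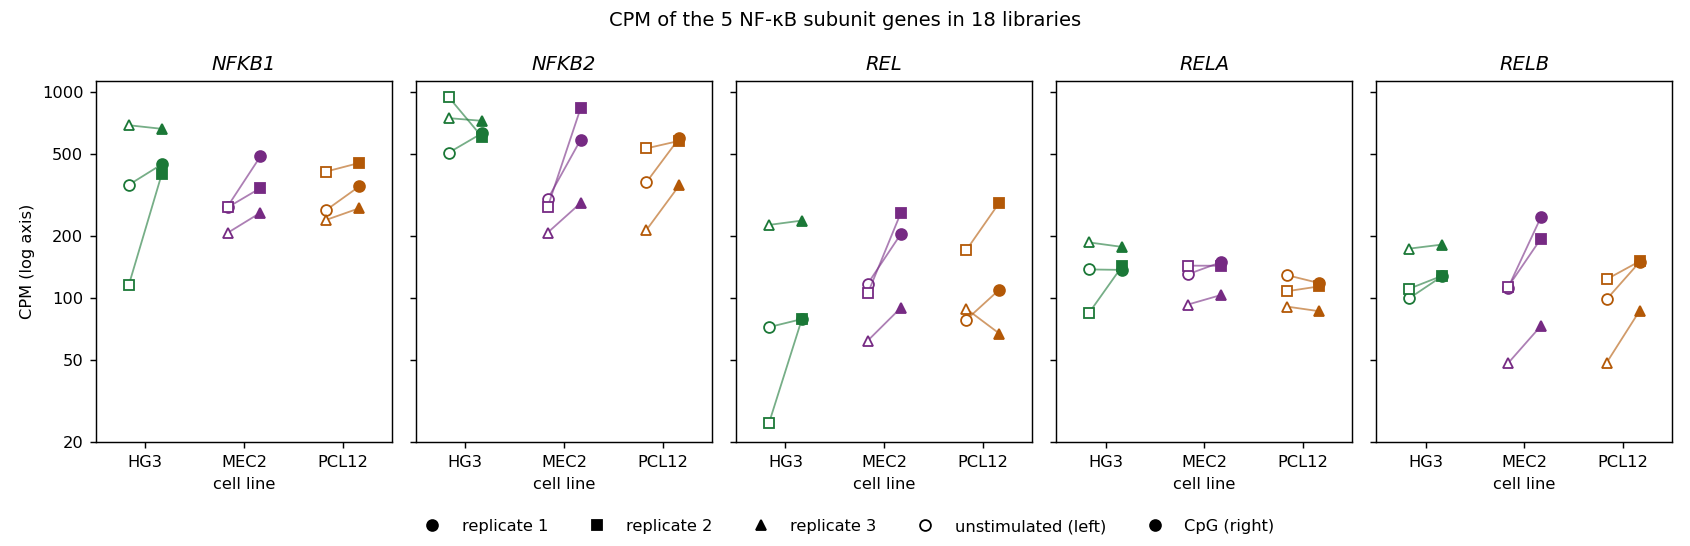
CPM of each subunit gene (log axis) in the 18 libraries, by cell line (colour), with the unstimulated library (open, left) joined to the CpG-stimulated library (filled, right) of the same replicate number (marker shape). In every panel and line the open and filled points overlap in range, while all 9 RELB lines slope upward and HG3 replicate 2 starts lowest for NFKB1, REL and RELA.

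The effect of CpG in each line was tested across 31872 genes with edgeR, with the 6 groups of 3 libraries in one fit, and a gene was called at an adjusted p below 0.05. None of the 5 subunit genes was called in HG3 (0.00314% of genes called), in MEC2 (0.00314%), in PCL12 (0% called) or for the mean effect of the 3 lines (0.00941%). At an unadjusted p below 0.05 the members were 0 in HG3 (3.73% of genes), 2 in MEC2 (2.46%), 0 in PCL12 (2.09%) and 2 for the mean effect (4.04%). NFKB2 and RELB were the 2 in both cases. DESeq2 called 0 members in these 4 comparisons (0.0113%, 0.00942%, 0.00314% and 0.0265% of genes). These DESeq2 shares are over the 17655, 31841, 31841 and 18889 genes to which it gave an adjusted p. With limma-voom 0 members were called too (0%, 0%, 0% and 0.00628%). At an unadjusted p below 0.05 both had 0, 2, 0 and 2 members, against 2.71%, 1.93%, 0.999% and 2.53% of genes in DESeq2 and 3.41%, 2.91%, 3.31% and 3.59% in limma-voom.

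In MEC2, NFKB2 had a Log2FC of 1.12 ± 0.34 (SE), with a nominal p of 0.00287 and an adjusted p of 1. It thereby met the study's definition of a differentially expressed gene, a nominal p below 0.01 with an absolute Log2FC of at least 1, as did 0.251% of the tested genes. The definition was no longer met without MEC2 CpG-stimulated replicate 2, the library with the high mitochondrial share, where the NFKB2 Log2FC was 0.74, below the 0.81 of RELB (adjusted p = 1 for both in edgeR). RELB in MEC2 had a Log2FC of 0.91 ± 0.41 (95% interval 0.01 to 1.81, adjusted p = 1 in edgeR), and it ran from 0.55, without CpG-stimulated replicate 1, to 1.27, without CpG-stimulated replicate 3. REL had 0.95 ± 0.77 and NFKB1 0.52 ± 0.42, with 95% intervals that include 0 (-0.73 to 2.64 and -0.40 to 1.43), and without CpG-stimulated replicate 1 NFKB1 was at 0.25. In HG3 the Log2FC of the 5 genes lay between -0.16 for NFKB2 and 0.38 for NFKB1, and in PCL12 between -0.04 for RELA and 0.52 for RELB. RELA was the closest to 0 for the mean of the 3 lines, at 0.07 with a 95% interval of -0.26 to 0.41. For NFKB1 in HG3 the Log2FC of 0.38 moved both ways with single libraries, to -0.03 without unstimulated replicate 2 and to 1.09 without unstimulated replicate 3 (edgeR, adjusted p = 0.742). In PCL12 the NFKB2 Log2FC of 0.46 was 0.71 without replicates 2 and 3, and the NFKB1 Log2FC of 0.22 was 0.38. That leaves 1 library against 1 in this line. Leaving out 1 library took NFKB2 in PCL12 from 0.17, without unstimulated replicate 3, to 0.82, and NFKB1 from 0.02, without CpG-stimulated replicate 2, to 0.50. Without both libraries of high mitochondrial share the Log2FC in MEC2 were 0.74 for NFKB2, 0.81 for RELB, 0.63 for REL and 0.56 for NFKB1, NFKB2 in HG3 was at 0.06, and 0 members were called in HG3 (0.0032% of genes called), in MEC2 (0%), in PCL12 (0%) or for the mean effect (0.0032%).

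The series describes each replicate as 1 stimulated and 1 unstimulated sample, so the pairs were also entered as a block. In MEC2 this pairing was not borne out by the counts for all numbers. Deviations of same-numbered libraries from their group means correlated at 0.19, -0.01 and 0.61 in replicates 1, 2 and 3. Replicates 1 and 2 each matched the other number best. With that block NFKB2 (Log2FC 1.01, adjusted p = 0.00218), REL (0.87, adjusted p = 0.0112) and RELB (0.84, adjusted p = 0.0180) were called higher with CpG in MEC2, 3 of 5 members against 0.333% of all genes. The mean effect of the 3 lines was called for REL (0.59, adjusted p = 0.000718), RELB (0.54, adjusted p = 0.00226), NFKB2 (0.47, adjusted p = 0.0287) and NFKB1 (0.46, adjusted p = 0.0298), 4 of 5 members against 0.555% of genes. RELA was not (0.10 ± 0.12). Leaving out 1 pair took the mean effect of NFKB1 from 0.28, without HG3 replicate 2, to 0.59, without HG3 replicate 3. For REL it ran from 0.42, without HG3 replicate 2, to 0.69, without PCL12 replicate 3. HG3 and PCL12 had 0 members called, against 0.135% and 0.0471% of genes, and 2 members at an unadjusted p below 0.05 in each, against 3.59% and 1.69%. In HG3 the NFKB1 Log2FC with the block was 0.67, and it was called without replicate 3 (1.06, adjusted p = 0.0478, 0.334% of genes called) and was 0.14 without replicate 2. The REL Log2FC there, 0.60 with the block, was 0.10 without replicate 2 and 0.89 without replicate 3.

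These calls depended on which low genes entered the fit. With all 31872 genes the blocked fit estimated infinite prior degrees of freedom, so that each gene was tested against the average spread at its level and its own spread between pairs did not count. When the 20733 genes that pass edgeR's filterByExpr were used, the prior fell to 9.10 degrees of freedom. The Log2FC in MEC2 were then 0.99 for NFKB2, 0.86 for REL and 0.83 for RELB, but 0 members were called in any line or for the mean effect, against 0% of genes in HG3, 0.0241% in MEC2, 0.00965% in PCL12 and 0.0916% for the mean, and 2, 3, 2 and 4 members had an unadjusted p below 0.05, against 3.05%, 3.6%, 1.83% and 4.9% of genes. In MEC2 the adjusted p was then 0.190 for RELB, 0.323 for NFKB2 and 0.931 for REL. For the mean effect it was 0.0605 for RELB, 0.350 for REL, 0.382 for NFKB2 and 0.599 for NFKB1. In limma-voom with the block RELB alone was called, for the mean effect (adjusted p = 0.0229, 0.0847% of genes called), and none in MEC2 (0.0251%), where its adjusted p was 0.0839. The count filter was applied anew when libraries were left out. Without MEC2 replicate 1 the blocked edgeR fit tested 31319 genes. It called none in MEC2 (0.249% of genes called) and REL alone for the mean effect (0.386%). Leaving out PCL12 replicates 2 and 3 keeps 1 pair of that line, so calls of that fit are not given. Leaving out HG3 and MEC2 replicate 2 keeps 2 pairs in each of these lines (30605 genes tested). The blocked edgeR fit then called 4 members in MEC2 (0.578% of genes), RELB at 0.88, NFKB2 at 0.73, REL at 0.67 and NFKB1 at 0.58. It called 2 in PCL12 (0.611%), RELB and NFKB2, 0 in HG3 (0.239%) and 4 for the mean effect (1.35%). For the mean, RELB was at 0.56, NFKB2 at 0.46, REL at 0.36 and NFKB1 at 0.32. The prior degrees of freedom of this fit were not examined and filterByExpr was not applied to it.

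**Figure D2:**
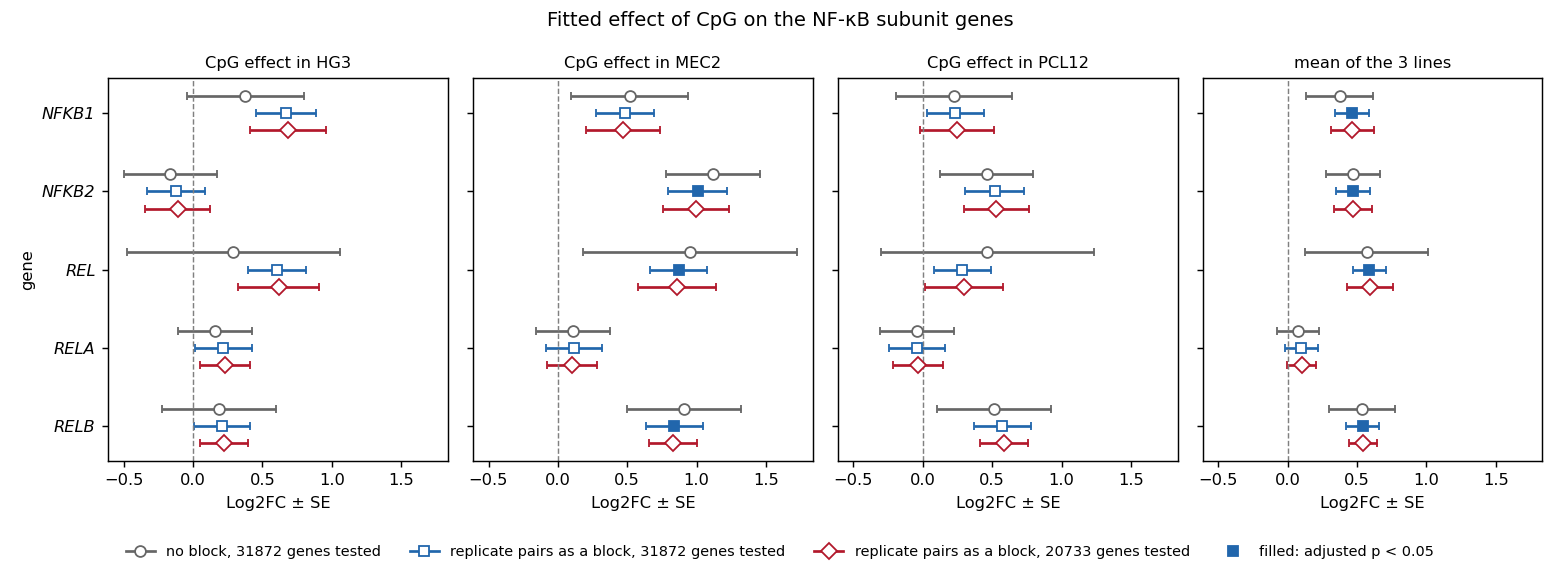
Log2FC of CpG against unstimulated, with its standard error, for each subunit gene (rows) in each line and for the mean of the 3 lines (panels), from edgeR without a block on 31872 genes (grey circles), with the replicate pairs as a block on 31872 genes (blue squares) and with the block on 20733 genes (red diamonds). Filled symbols have an adjusted p below 0.05; all are squares of the middle fit, 3 in MEC2 and 4 for the mean, and the fits differ most for REL in HG3, at 0.29 without the block and 0.60 with it.

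Taken pair by pair, with each gene's own spread, the 9 log2 ratios of CpG to unstimulated were tested against 0 with a two-sided exact sign-flip permutation test. RELB averaged 0.54 ± 0.34 (SD, n = 9) and was higher with CpG in 9 of 9 pairs, at an exact p of 0.00391, the smallest that 9 pairs can give. Of all tested genes, 0.301% were higher in all 9 pairs, and among genes averaging 20 CPM or more the share was 0.829%. NFKB1 averaged 0.47 ± 0.55 and was higher in 8 of 9 pairs (exact p = 0.00781), and REL averaged 0.59 ± 0.63 and was also higher in 8 of 9 (exact p = 0.0195). Of all genes 1.69% were higher in at least 8 pairs. NFKB2 averaged 0.47 ± 0.64, higher in 7 of 9 (exact p = 0.0547), and RELA 0.10 ± 0.27, higher in 4 of 9 (exact p = 0.348). These p-values are not adjusted over the genes of the table.

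RELB was about as high without the libraries that stand apart. Without PCL12 replicates 2 and 3 it averaged 0.53 ± 0.36 and was higher in 7 of 7 pairs (exact p = 0.0156), and without HG3 and MEC2 replicate 2 it averaged 0.55 ± 0.36, again in 7 of 7 (exact p = 0.0156). NFKB1 kept a smaller mean of 0.30 ± 0.27 in the 7 pairs without HG3 and MEC2 replicate 2 (higher in 6, exact p = 0.0312). REL averaged 0.34 ± 0.43 in those 7 pairs, where the test did not pass the threshold (exact p = 0.0781). NFKB2 kept its mean there, 0.46, with a smaller SD of 0.36 (exact p = 0.0312). In the 7 pairs without PCL12 replicates 2 and 3, NFKB1 averaged 0.55 (exact p = 0.0312), REL 0.71 (exact p = 0.0156) and NFKB2 0.48 (exact p = 0.125). Within single lines 3 against 3 libraries cannot give a p below 0.1, and the exact permutation p-values of the 5 genes were 0.2 to 0.9. By line, the RELB mean was 0.21 ± 0.14 in HG3, 0.84 ± 0.27 in MEC2 and 0.57 ± 0.27 in PCL12 (SD, n = 3).

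**Figure D3:**
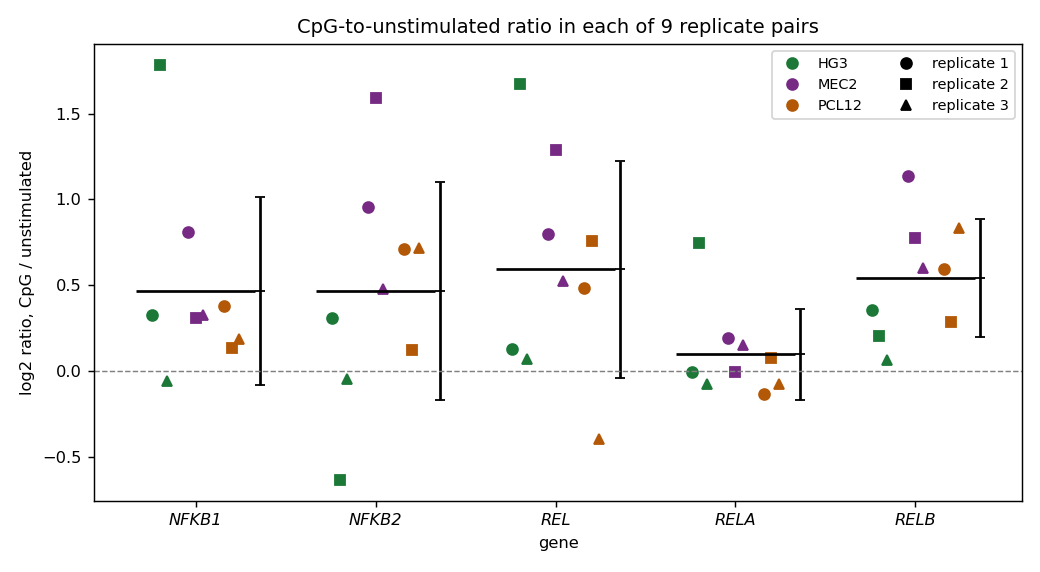
Log2 ratio of CPM, CpG over unstimulated, in each of the 9 replicate pairs for each subunit gene, by line (colour) and replicate number (marker). Black bars are the mean and the whiskers its SD over 9 pairs; all RELB points lie above 0, RELA gathers around 0, and HG3 replicate 2 is the highest point for NFKB1, REL and RELA and the lowest for NFKB2.

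Whether the lines differed in their response was tested as the difference of the CpG effects. No member was called between MEC2 and HG3 (0% of genes called), PCL12 and HG3 (0.00314%) or MEC2 and PCL12 (0%). The largest difference was that of NFKB2, whose Log2FC in MEC2 exceeded that in HG3 by 1.28 ± 0.48 (edgeR, adjusted p = 1.00). It was the only one of the 15 member tests without the block that had a nominal p below 0.05, against 4.1%, 4.16% and 3.23% of genes in the 3 contrasts. With the pairs as a block it was 1.13 (adjusted p = 0.0882, 0.141% of genes called) on 31872 genes and 1.10 (adjusted p = 1) on 20733. It was smaller without the libraries of high mitochondrial share, at 0.89 without MEC2 CpG-stimulated replicate 2 and 0.68 without that library and unstimulated HG3 replicate 2, neither with a nominal p below 0.05, and with the block it was 0.58 without HG3 and MEC2 replicate 2 (adjusted p = 0.197, 0.219% of genes called). With the block 2 members passed a nominal p of 0.05 in MEC2 against HG3 (3.53% of genes), NFKB2 and RELB (0.63), 1 in PCL12 against HG3 (2.39%), NFKB2 (0.64), and 1 in MEC2 against PCL12 (1.36%), REL (0.59). NFKB2 in PCL12 exceeded HG3 by 0.62 without the block, by 0.87 without PCL12 replicates 2 and 3, by 0.40 without both libraries of high mitochondrial share and by 0.34 to 0.98 when 1 library was left out, least without unstimulated PCL12 replicate 3. For the other 4 genes the differences lay between -0.20 and 0.72 without the block. The direction changed between these fits for NFKB1 in MEC2 against HG3, at 0.14 without the block and -0.19 with it, and for REL in PCL12 against HG3, at 0.18 and -0.32, while RELB was positive in each contrast of these fits.

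Between the unstimulated lines, edgeR on all libraries called a member in MEC2 against HG3 only, NFKB2. NFKB2 averaged 729 ± 216 CPM in HG3, 369 ± 159 CPM in PCL12 and 261 ± 48.5 CPM in MEC2 (SD, n = 3). All 3 HG3 libraries were above all 3 MEC2 libraries, as was so in one direction or the other for 22.2% of genes. MEC2 was lower than HG3 by a Log2FC of -1.48 ± 0.34 (adjusted p = 0.00441), the 1 member called in a contrast that called 9.78% of genes in either direction and 4.97% as lower in MEC2. The difference of PCL12 from HG3, -0.98 ± 0.34, had an adjusted p of 0.0695 in edgeR (9.44% of genes called). The adjusted p was 0.0394 in DESeq2 (19.1% of the 22590 genes given one) and 0.0425 in limma-voom (12.6%). The difference of MEC2 from PCL12, -0.50 ± 0.34, was not called (2.05%). The other 4 genes were called in none of the 3 contrasts, and their Log2FC ran from -0.61 for NFKB1 in MEC2 against HG3 to 0.16 for RELA in MEC2 against PCL12. Without unstimulated HG3 replicate 2, NFKB1 was also lower in MEC2 than in HG3 (-1.02, adjusted p = 0.0375), and NFKB2 remained so (-1.24, adjusted p = 0.0373, 8.83% of genes called). Without both libraries of high mitochondrial share NFKB2 was at -1.26 (adjusted p = 0.0338) and NFKB1 at -1.04 (adjusted p = 0.0660), with 9.67% of genes called. Without unstimulated HG3 replicate 3 the NFKB1 difference turned, to 0.11 (adjusted p = 0.966). For PCL12 against HG3, NFKB2 was at -0.73 without unstimulated HG3 replicate 2 (adjusted p = 0.279, 9.01%). It was at -0.99 without PCL12 replicates 2 and 3, which leaves 1 unstimulated PCL12 library. NFKB2 was called at -1.34 without unstimulated PCL12 replicate 2 (adjusted p = 0.0265, 7.29%), and also without unstimulated HG3 replicate 1 (8.79%), all by edgeR. Ordered by mean level over the 6 groups, every pair of neighbouring groups overlapped for each of the 5 genes. For NFKB2 the order ran from unstimulated HG3 (729 CPM) to unstimulated MEC2 (261 CPM), and for RELB from CpG-stimulated MEC2 (170.5 CPM) to unstimulated PCL12 (89.96 CPM).

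Ratios between 2 subunit genes within a library do not depend on the scaling between libraries. Log2 RELB/RELA was higher with CpG in 8 of 9 pairs, by 0.44 ± 0.47 (SD; exact sign-flip p = 0.0312), and log2 REL/RELA in 8 of 9, by 0.49 ± 0.48 (exact p = 0.0195). The RELB/RELA change was 0.72 ± 0.25 in MEC2 and 0.62 ± 0.36 in PCL12 but -0.01 ± 0.47 in HG3 (n = 3 each), where replicate 2 went down by 0.54. Log2 NFKB2/NFKB1, the ratio of the precursor genes, showed no common direction, with a mean change of 0.00 ± 0.99 (exact p = 0.996). In HG3 replicate 2 it changed by -2.42, and its log2 ratio was 3.02 without CpG, against 0.52 and 0.11 in the other unstimulated HG3 libraries. Without that pair the mean change was 0.30 (exact p = 0.0547). Without PCL12 replicates 2 and 3 the RELB/RELA change was 0.41 (exact p = 0.0938), leaving out single pairs gave exact p up to 0.0625, and without HG3 and MEC2 replicate 2 the REL/RELA change was 0.32 (exact p = 0.0781). The p-values of these 3 ratios are unadjusted.

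**Figure D4:**
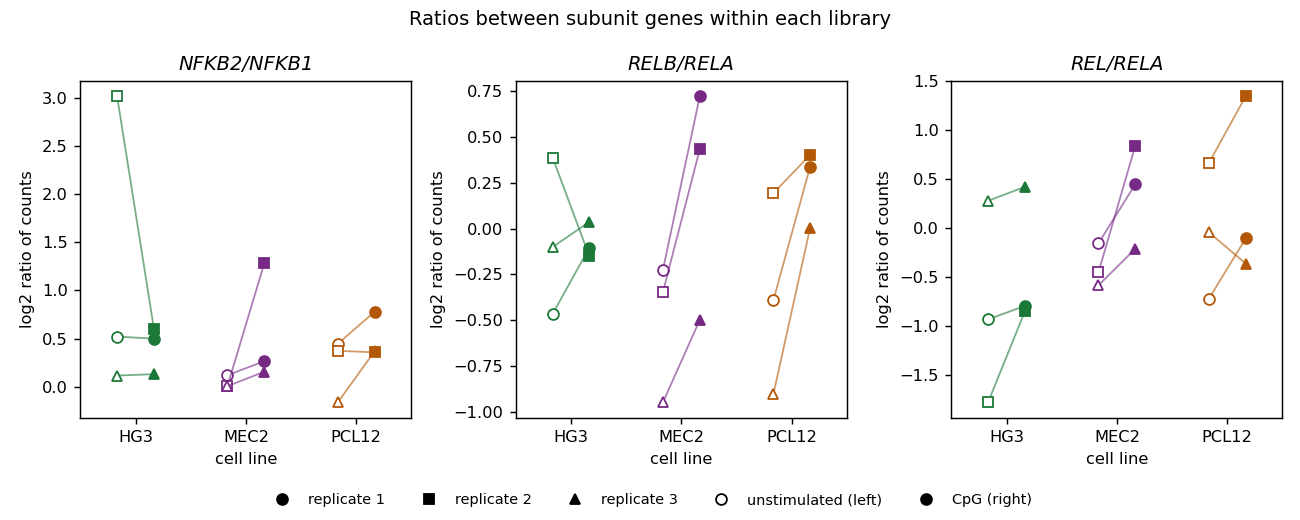
Log2 ratio of counts between 2 subunit genes within a library, by line (colour), with the unstimulated library (open, left) joined to the CpG-stimulated one (filled, right) of the same replicate (marker shape). RELB/RELA and REL/RELA are higher with CpG in 8 of 9 pairs each, and unstimulated HG3 replicate 2 stands far above the other libraries for NFKB2/NFKB1.

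How the subunit genes varied together is given as a description without a test. Over the 18 libraries, after subtraction of each group's mean log2 CPM, NFKB1 correlated with REL (r = 0.906) and RELA (r = 0.856), and NFKB2 with RELB (r = 0.834). RELB also correlated with RELA (r = 0.757), and NFKB1 and NFKB2 had the lowest r, 0.216. Over the 9 pair ratios the values were r = 0.924 for NFKB1 and RELA, 0.786 for NFKB2 and RELB, -0.190 for RELA and RELB, -0.412 for NFKB1 and NFKB2 and, the lowest, -0.568 for NFKB2 and RELA. These points share libraries and depth, and HG3 replicate 2, which is extreme for NFKB1, REL, RELA and NFKB2, is among them.

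The genes whose log2 CPM was most like that of a member over the 18 libraries, among 13990 genes averaging 1 CPM or more, were ranked by Pearson r as a description. NFKB1 was most like MYC (0.950), a transcription factor of growth, NAMPT (0.929), an enzyme of NAD synthesis, and RNF19B (0.927), a ubiquitin ligase. NFKB2 was most like MKNK2 (0.944), a kinase of the translation factor eIF4E, TRIP10 (0.941), an adaptor of the cell cortex, and EBI3 (0.924), a cytokine subunit. REL was most like ZBTB21 (0.965), TET3 (0.907), which oxidises methylcytosine, and ZFY (0.904), RELA was most like TLE4 (0.928), a corepressor, WIPF2 (0.927) and KANSL1 (0.922), and RELB was most like ABTB2 (0.915), TFE3 (0.911), a transcription factor, and TNIP2 (0.906), which binds A20. The lists of the 5 genes shared no name. These r include the differences between the lines and rest on the same 18 libraries.

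The other genes of the pathway were counted in lists, of which the targets and the IκB genes share 4 names, the IκB kinase list and the alternative-pathway list share CHUK and MAP3K14, and the alternative-pathway list and the targets share BIRC3. Of 32 NF-κB target genes in B cells, edgeR without the block called 0 in HG3, 1 in MEC2, 0 in PCL12 and 2 for the mean effect (0.00314%, 0.00314%, 0% and 0.00941% of all genes), all higher with CpG, and 31 of 32 had a positive Log2FC for the mean effect. Their median Log2FC was 0.17 in HG3, 0.72 in MEC2 and 0.40 in PCL12, beside medians of 0, 0 and 0.02 over all genes. With the block 1, 11, 5 and 15 were called on 31872 genes, against 0.135%, 0.333%, 0.0471% and 0.555% of all genes, and 0, 2, 2 and 6 of the 31 tested on 20733 genes, against 0%, 0.0241%, 0.00965% and 0.0916%, none of the list genes lower. NFKBIZ, the gene of IκBζ, an atypical nuclear IκB protein that acts as a cofactor of NF-κB, was called for the mean effect without the block (1.52 ± 0.19, adjusted p = 0.000398), as was ZC3H12A, the gene of the mRNA-decay enzyme Regnase-1 (1.29 ± 0.18, adjusted p = 0.00161). The cytokine genes TNF (0.87 ± 0.16, adjusted p = 0.0531) and LTA (1.02 ± 0.24, adjusted p = 1.00) were not called there, and both were called with the block on 20733 genes. RELB and NFKB2 in MEC2, at 0.91 and 1.12, were thus above the median of the target list and below NFKBIZ, at 2.20.

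Of the 6 IκB genes 1 was called for the mean effect without the block (0.00941% of all genes), NFKBIZ, and the median Log2FC was 0.42, beside 0.03 over all genes. BCL3 (0.44 ± 0.18), which binds p50 and p52 in the nucleus, NFKBIE (0.40 ± 0.18) and NFKBID (0.52 ± 0.29) were positive but not called. With the block on 31872 genes, where the shares of all genes are those given for the targets, 0 of the 6 were called in HG3, 3 in MEC2, namely NFKBIZ, NFKBID (0.94, adjusted p = 0.00502) and BCL3 (0.91, adjusted p = 0.00807), 1 in PCL12, NFKBIZ, and 2 for the mean effect, NFKBIZ and NFKBID (0.44, adjusted p = 0.0453). On 20733 genes NFKBIZ alone was called, in MEC2, in PCL12 and for the mean effect. Among 12 genes of the IκB kinase complex and the TLR9 arm none was called in any of the 4 comparisons, with or without the block, and for the mean effect 1, TLR9, had an unadjusted p below 0.05 without the block (4.04% of all genes) and 0 with it (4.54%). CHUK (0.14 ± 0.19) and IKBKB (0.13 ± 0.16), the genes of IKKα and IKKβ, and UNC93B1 (-0.20 ± 0.15), which carries TLR9 to endosomes, were not called and had no unadjusted p below 0.05. TLR9 itself was at 0 to 0.203 CPM in these libraries, where 3 counts correspond to 0.0446 to 0.147 CPM. A gene annotated on the same strand overlaps TLR9, so its value is uncertain. Among 6 regulators of the alternative pathway 0 were called without the block, with a median of 0.16 for the mean effect, and 2 had an unadjusted p below 0.05 there (4.04% of all genes), TRAF3 (0.41 ± 0.14), which restrains NIK, and BIRC3 (0.48 ± 0.22), a ubiquitin ligase that acts with it. BIRC3 was called with the block on 31872 genes (adjusted p = 0.0216) and not on 20733 (adjusted p = 0.376). BIRC2 (0.18 ± 0.16), the paralog of BIRC3, was not called for the mean effect in any of these 3 fits.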

How the data were processed

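RNA was sequenced from 18 samples, 3 per group in 6 groups, as single reads on a NovaSeq. Per the labels, the authors mapped trimmed reads to hg38, and the deposited values are raw read counts per gene symbol. The submitters' processing notes name FastQC, MultiQC, Trimmomatic, STAR and featureCounts; the annotation, the versions and the strand setting of the counting are not given in the sources used here. The paper and the labels name different RNA or library kits.

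A gene entered the test when its counts over all libraries came to 10 or more (31872 of 42248 with a count), and these were tested with edgeR 4.0.16 in R 4.3.3 (robust quasi-likelihood F test, TMM scaling, 6 groups, 12 residual degrees of freedom, Benjamini-Hochberg adjustment over all genes, threshold 0.05), the scripts having been tested on simulated data. limma 3.58.1 (voom) and DESeq2 1.42.0 were alternatives. CPM used TMM factors, and log2 CPM a prior count of 2. The cell markers, the transcripts abundant in MEC2 and the floors of 3 counts were scaled by library totals instead. Exact permutation tests used SciPy 1.17.1 and were two-sided. The design text makes each replicate 1 stimulated and 1 control sample, so replicate numbers were taken as pairs; deviations of same-numbered libraries over 13991 genes correlated at 0.189 to 0.611, apart from MEC2 replicate 2 (-0.01), and MEC2 replicates 1 and 2 each matched the other number best. Replicate libraries differed by more than counting error (chi-square per degree of freedom 17.4 to 380.1), and none were identical. Depth intervals and floors of 3 counts cover counting error only.

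The genes, the lists and the tests were chosen with earlier results of these data known. Named genes were the 5 subunit genes, the 3 genes most like each, up to 4 genes of each list by nominal p for the mean effect, NFKBIZ and TLR9. The alternatives that leave out pairs or filter genes in the fit with the replicate block were added after seeing the data.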

Additional observations from a re-analysis of the deposited data

How the results depend on the processing

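In the fit without a block, these counts of members called and directions changed, and the cause was not tested. With the replicate block edgeR called 3 members in MEC2 (0.333% of genes called) and 4 for the mean effect (0.555%). Blocked limma-voom called 1 for the mean (0.0847%). With no filter 1 was called in MEC2 (0.104%). For unstimulated PCL12 against HG3, 1 was called by DESeq2 (19.1% of 22590 genes), by limma-voom (12.6%) and with no filter (8.94%). Near 0, the Log2FC of RELB between unstimulated MEC2 and PCL12 was -0.039 with library totals, -0.015 with no filter and with the libraries of the contrast alone, -0.004 among genes averaging 1 CPM and -0.15 without PCL12 replicates 2 and 3, which also gave REL 0.24 and RELA -0.11 there and REL -0.44 for PCL12 against HG3; limma-voom gave REL 0.16 for MEC2 against HG3. Without both libraries of high mitochondrial share, an alternative chosen after seeing the data, HG3 gave NFKB1 -0.055, NFKB2 0.059, REL -0.18 and RELA -0.09, RELA was at -0.029 for the mean effect, and REL was at -0.40 for unstimulated PCL12 against HG3. The same alternative turned the difference of CpG effects to 0.28 for NFKB1 in PCL12 minus HG3, 0.14 for RELA in MEC2 minus HG3 and 0.05 for RELA in PCL12 minus HG3, and with the block, both pairs left out, to 0.43 for NFKB1 and 0.21 for RELA in MEC2 minus HG3. Between lines, the CpG effect of NFKB1 in MEC2 minus HG3 was 0.14 in edgeR, 0.13 in DESeq2, 0.04 in blocked limma-voom, -0.05 in limma-voom, -0.19 with the block and -0.22 with the block and filterByExpr. That of REL in PCL12 minus HG3 was 0.18, 0.16, -0.05, -0.26, -0.32 and -0.32 in the same order.

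Among the blocked results, limma-voom called 0 in MEC2 (0.0251% of genes) and 1 for the mean (0.0847%), library totals 1 (0.251%) and 2 (0.511%), filterByExpr 0 (0.0241%) and 0 (0.0916%), and the 1 CPM filter 0 (0.0286%) and 0 (0.143%). Without HG3 and MEC2 replicate 2, 4 were called in MEC2 (0.578%), 2 in PCL12 (0.611%) and 4 for the mean (1.35%), and in HG3 NFKB2 was at 0.14 and RELA at -0.029. Over pairs, leaving out those same replicates gave NFKB2 0.46, REL 0.34, NFKB2/NFKB1 0.16 and REL/RELA 0.32; library totals gave NFKB2 0.48, and leaving out PCL12 replicates 2 and 3 gave RELB/RELA 0.41.

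Leaving out 1 library or pair gave these ranges. In HG3 the Log2FC ran from -0.030 to 1.09 for NFKB1, -0.37 to 0.086 for NFKB2, -0.45 to 1.44 for REL, -0.065 to 0.45 for RELA and -0.0027 to 0.47 for RELB. RELA ran from -0.054 to 0.26 in MEC2, -0.17 to 0.10 in PCL12 and -0.0045 to 0.17 for the mean, and REL in PCL12 from -0.35 to 0.91. For unstimulated MEC2 against HG3, 1 to 2 members were called (7.09% to 9.22% of genes), with NFKB1 -1.02 to 0.11, REL -0.63 to 0.96 and RELA -0.38 to 0.14. For PCL12 against HG3, 0 to 1 were called (7.23% to 9.01%), with NFKB1 -0.74 to 0.38 and REL -0.37 to 1.21. The CpG effect in MEC2 ran from 0.74 to 1.44 for NFKB2, 0.55 to 1.27 for RELB, 0.63 to 1.28 for REL and 0.25 to 0.71 for NFKB1, and in PCL12 from 0.17 to 0.82 for NFKB2, 0.21 to 0.81 for RELB and 0.02 to 0.50 for NFKB1. For unstimulated MEC2 against PCL12, NFKB1 ran from -0.43 to 0.0065, REL from -0.45 to 0.19 and RELB from -0.30 to 0.32. With the block, 0 to 1 were called in HG3 (0.121% to 0.343%), 0 to 2 in MEC2 (0.176% to 0.371%) and 1 to 4 for the mean (0.207% to 0.637%), with NFKB1 in HG3 0.14 to 1.06, REL in HG3 0.10 to 0.89, NFKB2 in HG3 -0.34 to 0.13, REL in PCL12 0.04 to 0.62, RELA in HG3 -0.040 to 0.37 and RELA in PCL12 -0.11 to 0.0014. Over pairs, NFKB2 ran from 0.33 to 0.60, NFKB2/NFKB1 from -0.16 to 0.30 and RELB/RELA from 0.38 to 0.57.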
